A study of Mus musculus with 6 samples.

Results

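Acta1, the skeletal muscle alpha-actin, was the only one of 10 muscle actin and smooth muscle contractile genes whose samples did not overlap between the groups in irradiated mouse intestine. Of the 11923 genes above the floor on all 6 arrays, 6.27% were lower and 4.45% higher without overlap. Acta1 averaged 5.62 ± 0.31 in free ubiquitin (free Ub) samples and 6.83 ± 0.44 in PBS samples (log2 signal, SD, n = 3 each). The other 9 genes, among them the smooth muscle actins Acta2 and Actg2 and the smooth muscle myosin heavy chain Myh11, overlapped between the groups, and 0 of 9 passed the test, where 0.0577% of all genes passed. Within the PBS group, sample 3 was the lowest of all 6 samples for each of these 9 genes and sample 1 the highest for 8 of them. Among the genes above the floor, PBS 3 was the lowest for 18.9% and PBS 1 the highest for 25.8%. The 10 genes, Acta1, Acta2, Actg2, Myh11, Tagln, Cnn1, Des, Lmod1, Mylk and Myl9, were taken by name and make up 10 of the 19057 genes with a named probe on the array. The set was put together because Acta1 was lower after free Ub on a bright probe of these same samples, so the Acta1 difference is given below as a description with no test.

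RNA was measured on single-colour Illumina MouseWG-6 v2 expression arrays, 1 for each of 6 intestine samples. Free Ub is unconjugated ubiquitin, the small protein that cells otherwise attach to other proteins. The 3 free Ub samples and the 3 PBS samples all came from male C57 mice aged 4 weeks that had received 7 Gy to the whole body, and intestine was taken at 3.5 days, all according to the sample labels. The labels place the injection after radiation and give no free Ub dose. The study's methods give an older age and an injection before radiation, its legend of the arrays gives an earlier time, its legends differ on the order of injection and radiation, and no unirradiated sample is analysed here. The labels number the samples without stating that each is a separate animal, so p-values measure the spread between these samples. The values are normalised log2 signals, in which a step of 1 is a doubling or halving of the signal, and between 32.2% and 33.7% of the 45281 probes of an array lay at the floor, within 0.01 of the lowest value on that array. Arrays of different samples correlated at r = 0.96 to 0.98 across probes with a mean above 4, and markers of intestinal epithelium were measured on every array, with Vil1, a microvillus protein, between 12.49 and 12.87.

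The intestinal wall carries an outer and an inner layer of smooth muscle whose contraction drives peristalsis, and further smooth muscle lies beneath the epithelium and around vessels. In a smooth muscle cell, calcium activates myosin light chain kinase (Mylk), which phosphorylates the regulatory light chain (Myl9) and so allows the myosin motor (Myh11) to pull on filaments of alpha-actin (Acta2) and gamma-actin (Actg2). Calponin (Cnn1) and transgelin (Tagln) bind those actin filaments, leiomodin (Lmod1) nucleates them, and desmin (Des) forms the intermediate filaments that link them into a network. Acta1 is the main actin of skeletal muscle and is made at lower levels in other muscle. Many of these genes are controlled by serum response factor, which binds a 10-base element called the CArG box together with myocardin.

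RefSeq promoter sequences of the GRCm38.p6 build were matched by symbol for 7 of the 10 genes: Acta1, Acta2, Cnn1, Des, Lmod1, Mylk and Myl9. The 250 bases before the start of Acta1, the gene by which the set was chosen, are shown with those of Acta2 and Myl9, a pair whose signals moved together across the 6 samples (r = 0.94), written 5′ to 3′ on the strand of the gene. Capitals mark each stretch that matched the CArG box with at most 1 letter off. The Acta1 stretch is chr8:123894776-123895025 (minus strand), the Acta2 stretch is chr19:34255374-34255623 (minus strand) and the Myl9 stretch is chr2:156775214-156775463 (plus strand).
Acta1: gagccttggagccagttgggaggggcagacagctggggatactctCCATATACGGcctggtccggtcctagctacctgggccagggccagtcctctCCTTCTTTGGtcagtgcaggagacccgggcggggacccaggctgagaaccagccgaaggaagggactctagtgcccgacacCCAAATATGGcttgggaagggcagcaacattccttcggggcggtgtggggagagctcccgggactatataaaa
Acta2: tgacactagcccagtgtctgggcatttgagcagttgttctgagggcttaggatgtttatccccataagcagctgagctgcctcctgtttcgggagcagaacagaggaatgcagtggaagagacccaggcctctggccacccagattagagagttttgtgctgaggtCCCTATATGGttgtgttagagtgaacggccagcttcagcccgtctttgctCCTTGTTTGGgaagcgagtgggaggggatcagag
Myl9: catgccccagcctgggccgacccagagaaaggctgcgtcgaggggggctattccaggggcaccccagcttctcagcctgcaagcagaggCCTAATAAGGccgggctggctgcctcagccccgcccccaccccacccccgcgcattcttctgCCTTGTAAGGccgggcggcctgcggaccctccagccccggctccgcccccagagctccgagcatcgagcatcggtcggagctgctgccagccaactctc
An exact match was found in 2 of the 7 promoters, those of Acta1 (beginning 73 bases before the start) and Myl9 (161 bases before). A match with at most 1 letter off was found in 4 of 7, the further genes being Acta2 (84 and 34 bases before the start) and Lmod1 (189 and 164 bases before). Of 32851 mouse promoters of the same length, 1.47% held an exact match and 18.6% a match with at most 1 letter off, reading both strands, since the element reads as a CArG box on either. The matches are a description of letters, and no binding was measured. Moving together was not particular to Acta2 and Myl9. Des, in whose promoter no match was found, correlated with Myl9 at r = 0.96. A link between the matches and the signals was not tested.

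Acta1 was measured by a single probe. Its log2 signal was 5.27, 5.74 and 5.85 in free Ub samples 1, 2 and 3, against 6.53, 7.33 and 6.63 in PBS samples 1, 2 and 3. Every free Ub sample was below every PBS sample, and the difference of -1.21 (free Ub minus PBS) was a 2.31-fold lower signal. The highest free Ub sample and the lowest PBS sample were 5.85 and 6.53. Leaving out 1 sample at a time gave differences between -1.36 and -0.96, and could not change the sign, since the groups did not overlap. Since the gene was chosen by this contrast, nothing further is read from the difference, and groups that did not overlap in the lower direction were found for 6.27% of the 11923 genes above the floor on all 6 arrays.

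**Figure D1:**
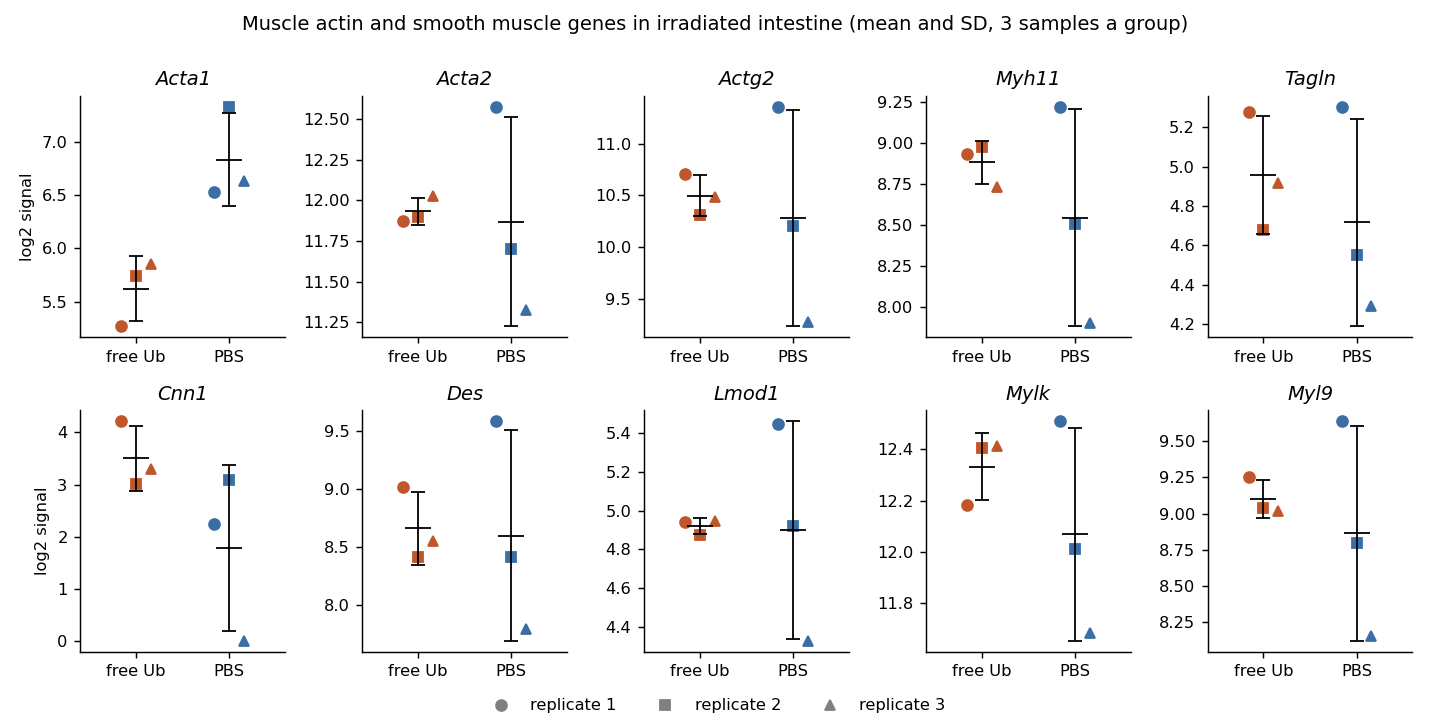
Log2 signal (y axis, a separate scale for each gene) of the 10 genes on their brightest probe in free Ub and PBS samples, with points for the 3 samples of each group, the marker shape giving the replicate number, and bars for the mean and SD. Acta1 lies between 5.27 and 5.85 in free Ub samples and between 6.53 and 7.33 in PBS samples, whereas the free Ub points of the other genes lie within or overlap the span of the PBS points.

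The actins of smooth muscle overlapped between the groups. Acta2, the alpha-actin of vascular and visceral smooth muscle, had a log2 signal of 11.88, 11.90 and 12.03 in free Ub samples and 12.58, 11.70 and 11.33 in PBS samples. The 3 free Ub samples lay between PBS 1 and PBS 2, and the difference was 0.06 (95% interval -0.87 to 1.00, limma adjusted p = 0.979). Actg2, the gamma-actin enriched in the gut wall, had 10.70, 10.31 and 10.48 in free Ub samples and 11.36, 10.21 and 9.27 in PBS samples. Its free Ub samples again fell inside the PBS span, which was 2.09 wide against 0.40 within free Ub, and the difference was 0.22 (95% interval -1.31 to 1.75, limma adjusted p = 0.979). The interval of Actg2 includes both a doubling and a halving of the signal, so a change of that size was not detectable with 3 samples a group.

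Acta2 is represented by 6 probes. The second brightest followed the first, at 9.31, 9.14 and 9.30 in free Ub samples and 9.94, 8.96 and 8.66 in PBS samples. The next gave 8.37, 8.59 and 8.59 in free Ub samples and 8.69, 7.86 and 7.81 in PBS samples. On both, PBS 1 was the highest and PBS 3 the lowest sample. On the fourth, free Ub samples had 7.78, 8.08 and 8.11 and PBS samples 7.85, 7.49 and 7.47, a difference of 0.39 (95% interval -0.02 to 0.80, unadjusted p = 0.0587 and adjusted p = 0.872 in limma), so that free Ub samples 2 and 3 exceeded all PBS samples while free Ub 1 did not. The probes thus placed the Acta2 difference between 0.06 and 0.40 with 0 of 4 passing the adjusted threshold. The other two Acta2 probes were at the floor, 1 of them on all 6 arrays and 1 on every array except free Ub 2, where it read 1.82.

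**Figure D2:**
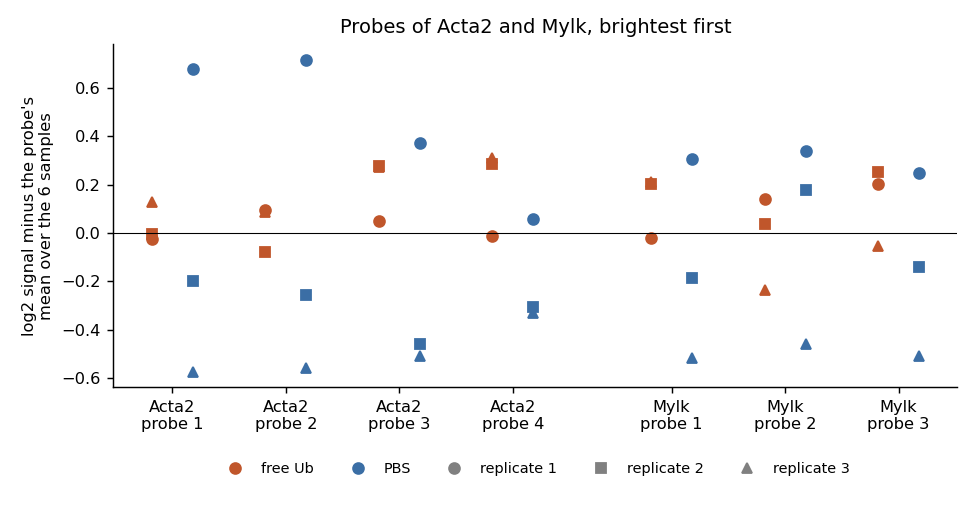
Log2 signal of each probe of Acta2 (4 probes) and Mylk (3 probes) minus that probe's mean over the 6 samples (y axis), probes ordered by brightness on the x axis, free Ub and PBS samples side by side, marker shape for the replicate number. PBS 3 is the lowest point on every probe shown, and PBS 1 is the highest on 5 of the 7.

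The motor and its regulators followed the smooth muscle actins. Myh11, the smooth muscle myosin heavy chain, had a log2 signal of 8.93, 8.98 and 8.73 in free Ub samples and 9.22, 8.51 and 7.91 in PBS samples. The free Ub samples lay above PBS 2 and PBS 3 and below PBS 1, and the difference was 0.34 (95% interval -0.63 to 1.30, limma adjusted p = 0.900). A second, dim Myh11 probe averaged 1.68 in free Ub samples and 1.81 in PBS samples, close to the floor. Myl9, the regulatory light chain, had 9.25, 9.04 and 9.02 in free Ub samples and 9.64, 8.80 and 8.16 in PBS samples. The order of samples was that of Myh11 among the PBS samples, and the difference was 0.24 (95% interval -0.85 to 1.32, limma adjusted p = 0.979).

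Mylk, the kinase that activates the light chain, had a log2 signal of 12.18, 12.40 and 12.41 in free Ub samples and 12.51, 12.01 and 11.68 in PBS samples. Here too PBS 1 was above and PBS 2 and PBS 3 were below all free Ub samples, with a difference of 0.26 (95% interval -0.36 to 0.89, limma adjusted p = 0.872). A second Mylk probe had 10.76, 10.66 and 10.38 in free Ub samples and 10.96, 10.80 and 10.16 in PBS samples. On this probe PBS 2 exceeded every free Ub sample, and the difference was -0.04. A further probe, with 10.51, 10.56 and 10.26 in free Ub samples and 10.56, 10.17 and 9.80 in PBS samples, gave a difference of 0.27. The probes of Mylk therefore did not share a direction, and the fourth was above the floor in free Ub 2 alone, at 2.70.

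Of the proteins that bind or build thin filaments, transgelin (Tagln) had a log2 signal of 5.28, 4.68 and 4.92 in free Ub samples and 5.30, 4.55 and 4.29 in PBS samples. The samples numbered 1 were nearly level, and the difference was 0.24 (95% interval -0.63 to 1.11, limma adjusted p = 0.958). A further Tagln probe averaged 1.03 in free Ub samples and 1.23 in PBS samples. Lmod1, the leiomodin of smooth muscle, had 4.94, 4.87 and 4.95 in free Ub samples and 5.45, 4.92 and 4.33 in PBS samples. Its free Ub samples were within 0.07 of one another, against a PBS span of 1.12, and the difference was 0.02 (95% interval -0.79 to 0.83, limma adjusted p = 0.986).

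Cnn1, the basic calponin of smooth muscle, was read close to the floor and was the only one of the 10 with a floor value. Its log2 signal was 4.21, 3.01 and 3.29 in free Ub samples and 2.24 and 3.09 in PBS samples 1 and 2, with PBS 3 at the floor. The fitted difference of 1.73 (95% interval -0.73 to 4.19, limma adjusted p = 0.872) includes that floor value and is no measured size. It was 0.84 without PBS 3, 2.39 without PBS 2, and 0.07 with all values under 4 raised to 4. Free Ub 2 was below PBS 2, so the groups overlapped.

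Desmin (Des), the muscle intermediate filament protein, had a log2 signal of 9.02, 8.42 and 8.55 in free Ub samples and 9.58, 8.42 and 7.80 in PBS samples. PBS 2 was level with free Ub 2, while PBS 1 and PBS 3 were the highest and lowest samples. The difference was 0.06 (95% interval -1.32 to 1.45, limma adjusted p = 0.979). In whole tissue, fewer muscle cells and less RNA per muscle cell cannot be told apart for this or any other gene here.

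Of the 9 genes other than Acta1, 0 passed an adjusted p under 0.05 in limma, where 0.0577% of all genes passed (11 of 19057, either direction). At an unadjusted p under 0.05 the count was also 0 of 9 in either direction, where 3.4% of all genes were lower and 2.34% higher. By exact permutation of the 6 samples, two-sided, the 9 genes had p between 0.2 and 0.9, and 3 samples against 3 cannot give less than 0.1. Groups that did not overlap in the higher direction were found for 0 of the 9, against 4.45% of the genes above the floor. All 9 means were nonetheless higher after free Ub, with a median difference of 0.24 against -0.00 over all genes, and the median with Acta1 included was 0.23. The 9 genes moved together between samples, so their shared direction is not 9 separate observations.

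That direction depended on single PBS samples. Without PBS 3, 4 of the 9 genes were higher and 5 lower in free Ub samples, and their median difference was -0.12. Without PBS 1, all 9 were higher with a median of 0.56, and Myh11 and Mylk passed an unadjusted p under 0.05 while 0 of 9 passed after adjustment. Without PBS 2, 7 were higher and 2 lower, with a median of 0.18. Leaving out free Ub 1, 2 or 3 gave medians of 0.11, 0.27 and 0.22, with 8, 9 and 9 genes higher.

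**Figure D3:**
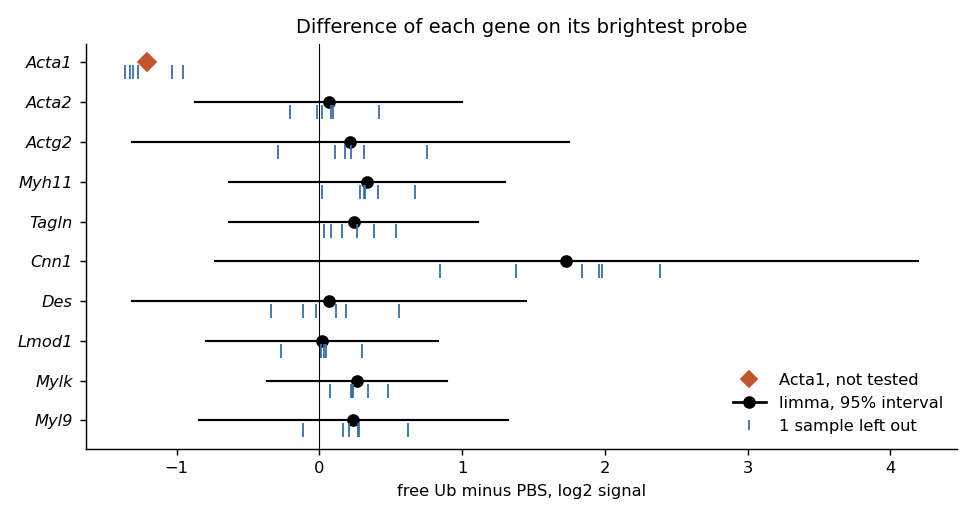
Difference in log2 signal, free Ub minus PBS (x axis), of the 10 genes on their brightest probe (y axis), with black points and lines for the limma estimate and its 95% interval, a diamond for Acta1, which was not tested, and blue ticks for the difference with each of the 6 samples left out in turn. The intervals of all 9 tested genes span 0, and the ticks of Acta1 run between -1.36 and -0.96.

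The smooth muscle genes shared an order of the PBS samples. PBS 3 was the lowest of all 6 samples in 9 of 9 genes other than Acta1, where it was the lowest for 18.9% of the 11923 genes above the floor, and PBS 1 was the highest in 8 of 9, where it was the highest for 25.8%. Among the 8 of these genes with a mean above 4, both held in 8 of 8, against 6.61% of 8856 genes selected in the same way. As a median over the 9 genes, relative to each gene's mean over the 6 samples, free Ub samples 1, 2 and 3 stood at 0.27, -0.00 and 0.08 and PBS samples 1, 2 and 3 at 0.54, -0.19 and -0.81. The free Ub samples thus lay between the extremes set by PBS 1 and PBS 3. Summed on the linear scale, the signal of the 10 genes was 11810 to 12500 in free Ub samples and 7367 to 16910 in PBS samples. Such a sum mostly follows the brightest genes of a list, here Mylk and Acta2 (mean log2 signal 12.20 and 11.90). No batch is given in the labels, and the cause of the spread among PBS samples was not tested.

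**Figure D4:**
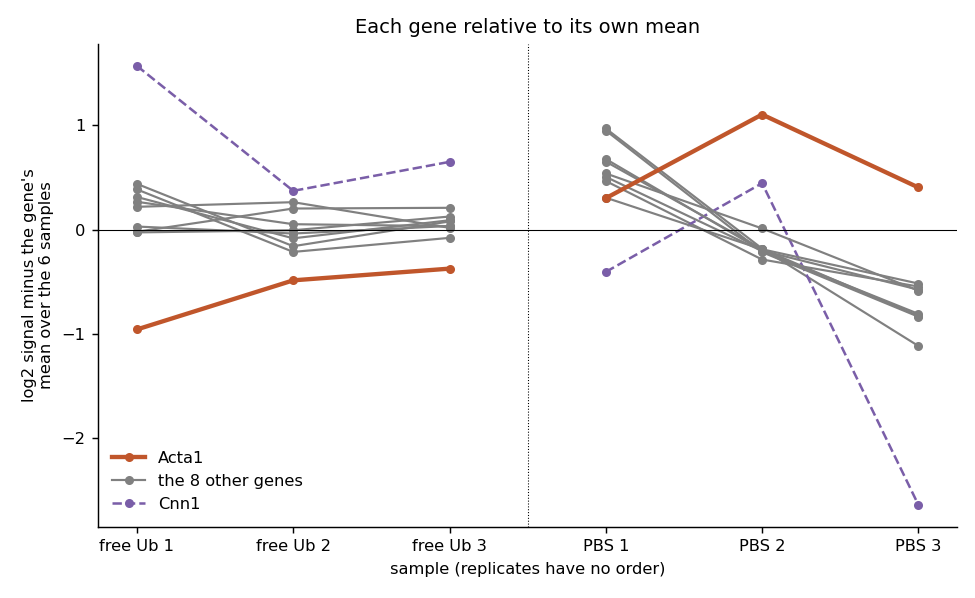
Log2 signal of each of the 10 genes minus its own mean over the 6 samples (y axis) in each free Ub and PBS sample (x axis, replicates in no order), with lines joining the values of 1 gene, orange for Acta1, dashed purple for Cnn1 and grey for the 8 others. The grey lines are highest at PBS 1 and lowest at PBS 3, while Acta1 is highest at PBS 2 and lowest at free Ub 1.

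The spread within groups showed the same feature. Over the 8 genes with a mean above 4 other than Acta1, the median range was 0.24 within free Ub samples and 1.28 within PBS samples, against 0.37 and 0.41 over all 8856 genes. The PBS range was the wider one in 8 of 8, compared with 55.3% of all genes, and it exceeded 1 log2 unit in 7 of 8, compared with 9.61%. Mylk was the exception, with a PBS range of 0.82. Acta1 had ranges of 0.58 and 0.80 in free Ub and PBS samples. Its PBS range was also the wider one, close to that of Mylk and below those of the other smooth muscle genes.

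**Figure D5:**
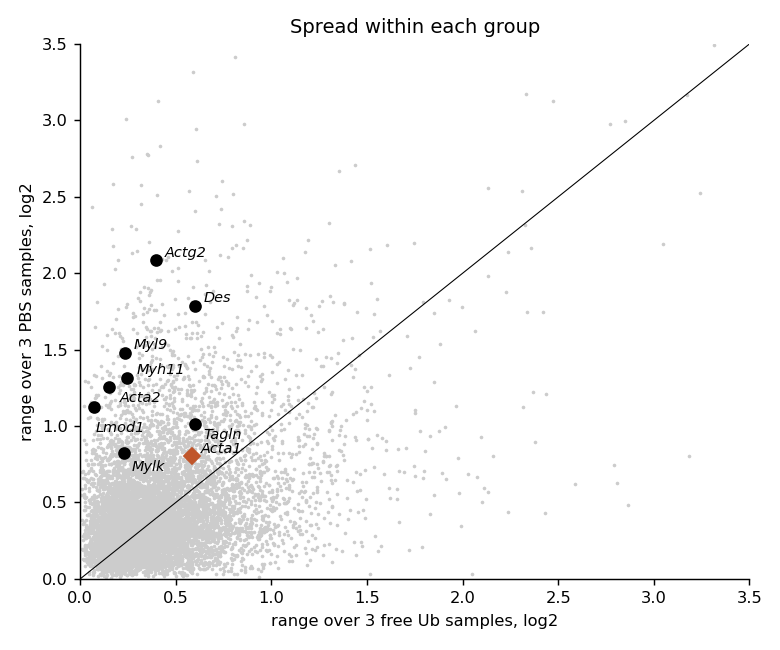
Range of log2 signal over the 3 PBS samples (y axis) against the range over the 3 free Ub samples (x axis) for 8856 genes with a mean above 4 and no floor value (grey), 8 smooth muscle genes (black) and Acta1 (orange diamond), with a line of equal ranges; 40 grey genes with a range above 3.5 lie outside the axes. Every named gene lies above the line, and 7 of the 8 black points lie above a PBS range of 1. For the black points, lying above the line follows from PBS 1 and PBS 3 being their highest and lowest samples.

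Across the 6 samples, the 28 pairs formed by Acta2, Actg2, Myh11, Tagln, Des, Lmod1, Mylk and Myl9 correlated at Pearson r = 0.72 to 0.99, with a median of 0.92. Acta1 correlated with the other 9 genes at r = -0.51 to -0.06, with a median of -0.35, and Cnn1 with the 8 at r = 0.40 to 0.69. These values describe 6 arrays, with PBS 1 and PBS 3 at the extremes of each of the 8 genes. Acta1 was chosen for being lower in free Ub samples, where the means of the other 9 were higher. The sign of its correlations therefore partly follows from the choice. The genes most like Acta1, among 6134 genes with a mean above 6 that are not in the set, were Elp3 (r = 0.98), Farp2 (r = 0.95), Ehd4 (r = 0.95), Apoa4 (r = 0.94) and Dtx3l (r = 0.94). Elp3, a subunit of the Elongator complex, had a log2 signal of 7.04, 7.15 and 7.25 in free Ub samples and 7.33, 7.51 and 7.35 in PBS samples, the same sample order as Acta1 over a narrower span. The genes most like Myh11 were Aktip (r = 0.99), Acbd3 (r = 0.97), Nelfcd (r = 0.96), E2f5 (r = 0.95) and Ikbkg (r = 0.95). Aktip had 6.29, 6.27 and 6.20 in free Ub samples and 6.49, 5.90 and 5.58 in PBS samples, with PBS 1 and PBS 3 at the extremes. The genes like Acta1 and those like Myh11 were picked from the 6134 by their correlation over 6 samples. Their shared sample order therefore follows from the choice.

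Other genes of the contractile apparatus were read from 3 lists. Of 41 measured genes of the thin filament, dense plaque and muscle cytoskeleton, 24 were higher and 17 lower in mean after free Ub, with a median difference of 0.06 and 0 of 41 past the adjusted threshold. At an unadjusted p under 0.05, 3 of 41 were higher and 0 lower, where 2.34% of all genes were higher and 3.4% lower. Pdlim5, a scaffold of the actin cytoskeleton, had a log2 signal of 6.19, 6.04 and 6.41 in free Ub samples and 5.40, 5.76 and 5.80 in PBS samples (difference 0.56, limma adjusted p = 0.751). Lpp, a focal adhesion protein, had 6.27, 6.78 and 6.46 in free Ub samples and 5.57, 6.03 and 5.90 in PBS samples (difference 0.67, limma adjusted p = 0.762). The remaining gene, Pgm5, a protein of adherens-type junctions in muscle, had 4.12, 4.11 and 3.62 in free Ub samples and 3.40, 3.60 and 3.09 in PBS samples (difference 0.59, limma adjusted p = 0.872). All 3 were higher in every free Ub sample than in any PBS sample, which is likely for genes picked by a p under 0.05. Of all genes above the floor, not picked by p, 4.45% were higher in that way.

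The sample order of the 8 genes was held by some genes of this wider list. PBS 1 was the highest and PBS 3 the lowest sample for 6 of the 26 thin filament and cytoskeleton genes with a mean above 4 (23.1%). Of all 8856 genes with a mean above 4 and no floor value, 6.61% held that order. These 6, Tpm1, Tpm2, Flna, Vcl, Synm and Pdlim3, were singled out by that order once it was known. Tpm2, the beta-tropomyosin that lies along the actin filament, had a log2 signal of 9.24, 8.73 and 8.72 in free Ub samples and 9.69, 8.74 and 8.04 in PBS samples. Synm, an intermediate filament partner of desmin, had 6.49, 5.78 and 6.08 in free Ub samples and 6.69, 5.83 and 4.18 in PBS samples. In both, PBS samples 1 and 3 again enclosed the free Ub samples.

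Of 26 measured genes of contraction signalling (cyclic GMP signalling, calcium handling and receptors among them), 13 were higher and 13 lower, with a median difference of 0.01 and 0 past the adjusted threshold. The calcium-activated potassium channel Kcnma1 was the 1 gene of the 26 at an unadjusted p under 0.05, where 3.4% of all genes were lower. Its dim log2 signal was 0.08, 0.90 and the floor in free Ub samples and 1.84, 1.59 and 1.38 in PBS samples (limma adjusted p = 0.646), and the floor value leaves no measured size of difference. PBS 1 was the highest and PBS 3 the lowest sample for 2 of the 14 genes with a mean above 4, the cyclic GMP kinase Prkg1 and its substrate Mrvi1. Of all 8856 genes with a mean above 4 and no floor value, 6.61% held that order. Of 19 measured transcription regulators of smooth muscle, 7 were higher and 12 lower, with a median difference of -0.09 and 0 past the adjusted threshold. Smad3, a mediator of TGF-beta signalling, had 8.46, 8.68 and 8.73 in free Ub samples and 8.99, 8.96 and 8.77 in PBS samples (difference -0.28, unadjusted p = 0.0475 and adjusted p = 0.872 in limma). It was the 1 gene of the 19 at an unadjusted p under 0.05, where 3.4% of all genes were lower. Serum response factor (Srf) had 7.55, 7.14 and 7.29 in free Ub samples and 7.49, 7.63 and 7.52 in PBS samples, and its coactivator Myocd had 5.10, 4.50 and 4.40 in free Ub samples and 5.20, 5.27 and 4.54 in PBS samples. Neither passed a threshold (limma adjusted p = 0.872 for each), and PBS 3 was not the lowest sample for either.

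Because Acta1 is best known from skeletal muscle, markers of that tissue were read beside it. Of 24 measured skeletal muscle markers, 10 were higher, 12 lower and 2 (Tnnt3 and Myoz1) at the floor on all 6 arrays, with a median difference of -0.01 and summed linear signals of 316.3 to 460.3 in free Ub samples and 387.5 to 510.7 in PBS samples. The 5 markers with a mean above 4 were each lower in mean after free Ub, with differences of -0.38 for Mylpf, -0.37 for Actn2, -0.28 for Tnnt1, -0.22 for Myl1 and -0.20 for Ryr1, and 0 of the 5 passed an unadjusted p under 0.05. All 5 overlapped between the groups. PBS 1 was the highest of the 6 samples for 4 of these 5, whereas Acta1 was highest in PBS 2. Of all 8856 genes with a mean above 4 and no floor value, 24.9% were highest in PBS 1. The fast myosin Myh4 was above the floor in free Ub samples 1 and 3, at 3.11 and 0.05, and in 0 of 3 PBS samples. Actn3, the alpha-actinin of fast fibres, was dim at 1.73, 1.79 and 2.02 in free Ub samples and 3.43, 2.73 and 3.0 in PBS samples, without overlap (difference -1.21, unadjusted p = 0.00309 and adjusted p = 0.450 in limma). It was the 1 marker of the 24 at an unadjusted p under 0.05, where 3.4% of all genes were lower. Of the genes above the floor, 6.27% were lower without overlap. Ckm, the muscle creatine kinase, had 3.14, 2.15 and 3.04 in free Ub samples and 4.44, 3.80 and 2.15 in PBS samples, with overlap. Of 13 measured cardiac muscle markers, 3 were higher, 9 lower and 1 (Tnni3) at the floor throughout, with summed linear signals of 118.5 to 217.9 in free Ub samples and 141.1 to 200.0 in PBS samples. The summed signals overlapped for both lists, and their part in the Acta1 difference was not tested.

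Markers of other cells of the gut wall were read in the same way, with 0 genes past the adjusted threshold in any list. Of 10 non-muscle actin and myosin genes, 6 were higher and 4 lower (summed linear signals 31350 to 32140 in free Ub samples and 27850 to 33680 in PBS samples). Myh9, the non-muscle myosin heavy chain, had a log2 signal of 10.45, 10.43 and 10.44 in free Ub samples and 10.57, 10.69 and 10.75 in PBS samples (difference -0.23, limma adjusted p = 0.647). It was lower without overlap, as were 6.27% of the genes above the floor. Of 14 fibroblast markers 5 were higher and 9 lower (3847 to 5382 in free Ub samples and 4585 to 5190 in PBS samples), and of 8 pericyte markers 5 were higher, 2 lower and 1 at the floor (202.9 to 244.7 in free Ub samples and 238.6 to 264.3 in PBS samples). All 3 summed signals spanned less over the PBS samples than that of the contractile genes. Single pericyte markers nonetheless varied widely among PBS samples: for the 6 with a mean above 4 the median range was 0.50 in free Ub samples and 1.16 in PBS samples, and the PBS range was the wider in 6 of 6 and over 1 in 5 of 6. Of all 8856 genes with a mean above 4 and no floor value, it was the wider in 55.3% and over 1 in 9.61%. The sample order of these pericyte markers was not shared, since Rgs5 and Abcc9 were highest in PBS 1, whereas Cspg4 and Notch3 were lowest there.

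The 6 markers of interstitial cells of Cajal, the pacemaker cells that lie among gut smooth muscle, had summed linear signals of 590.2 to 686 in free Ub samples and 574 to 851.9 in PBS samples, with 3 higher and 3 lower. Their median deviation was 0.66 in PBS 1 and -0.10 in both PBS 2 and PBS 3, so PBS 1 was high for them too while PBS 3 did not stand apart. Of 11 enteric neuron and glia markers 3 were higher, 7 lower and 1 at the floor (175.4 to 329.8 in free Ub samples and 240.4 to 329.1 in PBS samples), and the glial factor Sox10 differed by -0.42 (unadjusted p = 0.0211 and adjusted p = 0.785 in limma). Sox10 was the 1 gene of the 11 at an unadjusted p under 0.05, where 3.4% of all genes were lower. Of 13 epithelial markers 6 were higher and 7 lower (43780 to 53900 in free Ub samples and 43940 to 53890 in PBS samples), with median deviations of -0.15, 0.10 and 0.07 in free Ub samples and 0.07, 0.10 and -0.14 in PBS samples. The intestinal transcription factor Cdx2 differed by -0.27 (limma adjusted p = 0.750).

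Endothelial markers were the 1 cell type list whose summed signals did not overlap, at 527.7 to 630.0 in free Ub samples and 685.4 to 835.5 in PBS samples. Of the 10 genes, 3 were higher and 7 lower, and Eng and Robo4 (2 of 10, where 3.4% of all genes were) were lower at an unadjusted p under 0.05 (differences -0.56 and -0.46, limma adjusted p = 0.726 and 0.860), while the defining markers Pecam1 and Cdh5 differed by -0.12 and 0.04. Of 6 adipocyte markers 3 were higher, 2 lower and 1 at the floor (581.9 to 722.8 in free Ub samples and 439 to 672.6 in PBS samples), and of 4 mesothelial markers 3 were higher and 1 lower (175.7 to 262.2 in free Ub samples and 178.8 to 299.5 in PBS samples). The part of any of these cell types in the values of the contractile genes was not tested.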

How the data were processed

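Single-colour arrays of 6 intestine samples (3 free Ub, 3 PBS) were analysed. The deposited values are normalised signals on a log scale, read as log2 because of their highest value, since no source used here states the base; the authors normalised them by cubic spline in GenomeStudio, and the equal medians and quartiles of the 6 columns show that arrays were brought to 1 distribution, so a change in total signal cannot be seen. How background was handled and how the floor near 0 arose is not given in the sources used here, and the table holds no detection p-values. GEO's platform annotation gave 1 gene symbol to 34885 of 45281 probes, several to 18 and none to 10378. A gene took the value of its brightest probe over all samples, and every probe of the 10 genes (20 probes) is given in the text or as at the floor.

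Free Ub was set against PBS on every probe by the two-sided moderated test of limma 3.58.1 (lmFit, eBayes) in R 4.3.3 without covariates, p-values were adjusted over the 45281 probes by the Benjamini-Hochberg method, and 0.05 was the threshold. The script was tested on simulated data. Acta1 was left out of every test. The 10 genes, the gene lists and the cell type markers were chosen with earlier results of these data known. Beside the 10 genes, the text names list genes at an unadjusted p under 0.05, or those with the smallest p, the 5 genes most correlated with Acta1 and with Myh11, and defining markers. Srf, Myocd, Ckm, Myh4, Vil1, Pecam1, Cdh5, the brighter skeletal muscle and pericyte markers, genes at the floor and those picked by sample order were named after their values were seen. The alternatives were quantile normalisation, median centring, values under 4 raised to 4, only probes above the median mean, the mean of a gene's probes, an intensity trend with robust variances, an unpaired t-test, the methods' paired t-test on the replicate number, a replicate block in limma and leaving out each sample. The number of arrays limits the precision. Promoter windows came from RefSeq (GRCm38.p6, 32851 windows).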

Additional observations from a re-analysis of the deposited data

How the results depend on the processing

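The 10 genes kept their direction, and the 9 tested ones their side of the threshold, in 90 of 90 values (10 genes by 9 settings) under quantile normalisation, median centring, values under 4 raised to 4, restriction to the brighter probes, averaged probes, an intensity trend, an unpaired t-test and both replicate-block fits, with a lowest adjusted p of 0.674. For direction most of these settings are no check. The other tests and the restriction to brighter probes leave a difference as it was. Both normalisations hardly move it, since the arrays already shared 1 distribution. With values under 4 raised to 4, only the difference of Cnn1 could change. With averaged probes, only those of Acta2, Myh11, Tagln and Mylk could, since the others have a single probe. For direction, most of the 90 values are therefore the same value repeated. With 1 sample left out, 52 of 60 differences kept their direction and 8 changed sign, the ranges being -0.21 to 0.42 for Acta2, -0.29 to 0.76 for Actg2, -0.34 to 0.56 for Des, -0.27 to 0.30 for Lmod1 and -0.12 to 0.62 for Myl9. The cause was not tested. Acta1, whose groups did not overlap, could not change sign in this way. The median difference over the 10 genes was 0.14 with values under 4 raised to 4, 0.16 with averaged probes, and -0.16 to 0.55 with 1 sample left out. Over all genes, the count at an adjusted p under 0.05 was 11, against 13 with quantile normalisation, 6 with averaged probes, 5 by an unpaired t-test, 0 with values under 4 raised to 4, 0 with the brighter probes only, 0 with an intensity trend, and 22 to 39 with 1 sample left out. Genes lower at an unadjusted p under 0.05 numbered 648, against 355 with values under 4 raised to 4 (10499 genes tested) and 345 with the brighter probes only (12502 genes tested). Same-numbered samples of the groups deviated from their group means with r = -0.14, -0.02 and -0.49. With 3 samples a group, these values cannot decide whether same-numbered samples were paired, and the labels do not state it. With the replicate number as a block, 0 genes passed the adjusted threshold in limma and 0 in the methods' paired t-test, and 681 and 438 were lower at an unadjusted p under 0.05. Brightness limits Cnn1, which has no measured size of difference.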
